A study of Mus musculus with 6 samples.

Results

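The genes described here are 8 integrin subunits, the alpha chains Itgav, Itga6, Itga1 and Itgam and the beta chains Itgb1, Itgb3, Itgb5 and Itgb8, which were taken by name from the 16411 genes of a single-cell count table. They are 8 of the 25 integrin subunits that the table lists. All 8 were found, and 7 of them passed the filter on low counts and could be compared between cell types. Itgb3 did not, with 44 UMIs (unique molecular identifiers, which count captured RNA molecules) in 42 cells.

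The cells came from the hypothalamus of male ob/ob mice aged 11 weeks, each given 3 µg of FGF1 R50E into a brain ventricle and killed on day 5. FGF1 R50E is a form of fibroblast growth factor 1 made to bind integrins poorly. The labels give 6 such samples of 1 mouse each, and the table holds cells of 4 of these mice (mice 3, 4, 30 and 34). No cells of another treatment are used here, so nothing below measures an effect of FGF1 R50E, and the question is how the subunits are spread over the 9 cell types that the authors assigned.

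Integrins are receptors for the extracellular matrix and for other cells, each built of an alpha and a beta chain that leave the cell interior only as a pair. The alpha v chain (Itgav) can pair with beta 1, beta 3, beta 5 or beta 8. It reads the RGD motif of vitronectin, fibronectin and some latent forms of TGF-beta. Alpha v with beta 8 can release such forms from latency in the brain. Alpha 6 (Itga6) with beta 1 or beta 4 binds laminin, alpha 1 (Itga1) with beta 1 binds collagen and laminin, and alpha M (Itgam, also known as CD11b) with beta 2 (Itgb2) is the complement receptor of microglia and other myeloid cells.

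The 4 mice gave 20151 cells, with 3299971 to 8856079 UMIs a mouse and medians of 909 to 1066 UMIs a cell. Of 5 markers for each of 9 cell types, all were highest in their own type except Tnr, a marker of oligodendrocyte precursor cells (OPCs) that was highest in committed oligodendrocyte precursors (COPs). The vascular leptomeningeal cells (VLMCs) numbered 6, 12, 44 and 6 in mice 3, 4, 30 and 34 and were left out of every test, and microglia numbered 128, 34, 95 and 123. The 5 neuron markers summed to means of 169 to 537 CPM over the 9 types. Astrocyte markers summed to 8065 CPM in astrocytes and to 631 to 2502 CPM in the other types, 1133 in endothelial cells and 1422 in microglia among them, and oligodendrocyte markers to 720 to 1360 CPM in types other than COPs and oligodendrocytes. The part of such RNA in the levels and shared cells below was not tested. Of 19954 cell barcodes, 194 occurred in more than 1 library. Mouse 30 stood apart: the chemokine gene Cxcl10 was at 3731 CPM (UMIs scaled to 1e+06 per mouse and cell type) in its ependymal cells, against 0, 0 and 38.5 CPM in mice 3, 4 and 34, and the Y-linked Ddx3y was at 45.5 CPM over all its cells, against 111 to 120 CPM in the others. The members of the integrin list are therefore given for each mouse, and where leaving out mouse 30 changed a call this is stated.

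Levels below are CPM by the total UMIs of a mouse and cell type, as mean ± SD over 4 mice. One UMI stands for a molecule caught at its 3′ end, so that levels are not divided by gene length. Fold changes come from an edgeR quasi-likelihood fit of 32 sums (8 types in 4 mice, with mouse as a block), scaled by TMM, and a gene was called where its Benjamini-Hochberg adjusted p, over 10166 genes, was below 0.05 and it differed by more than 1 on the log2 scale. The authors drew the types from expression in the same cells, and a gene high in 1 type alone passes the filter through that type, so that counts of called members are descriptions. Neighbours in the order of types are neighbours by TMM-scaled CPM. Each sample was 1 mouse and mouse was a block, so p-values weigh a difference between types against its spread over these 4 mice.

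**Figure D1:**
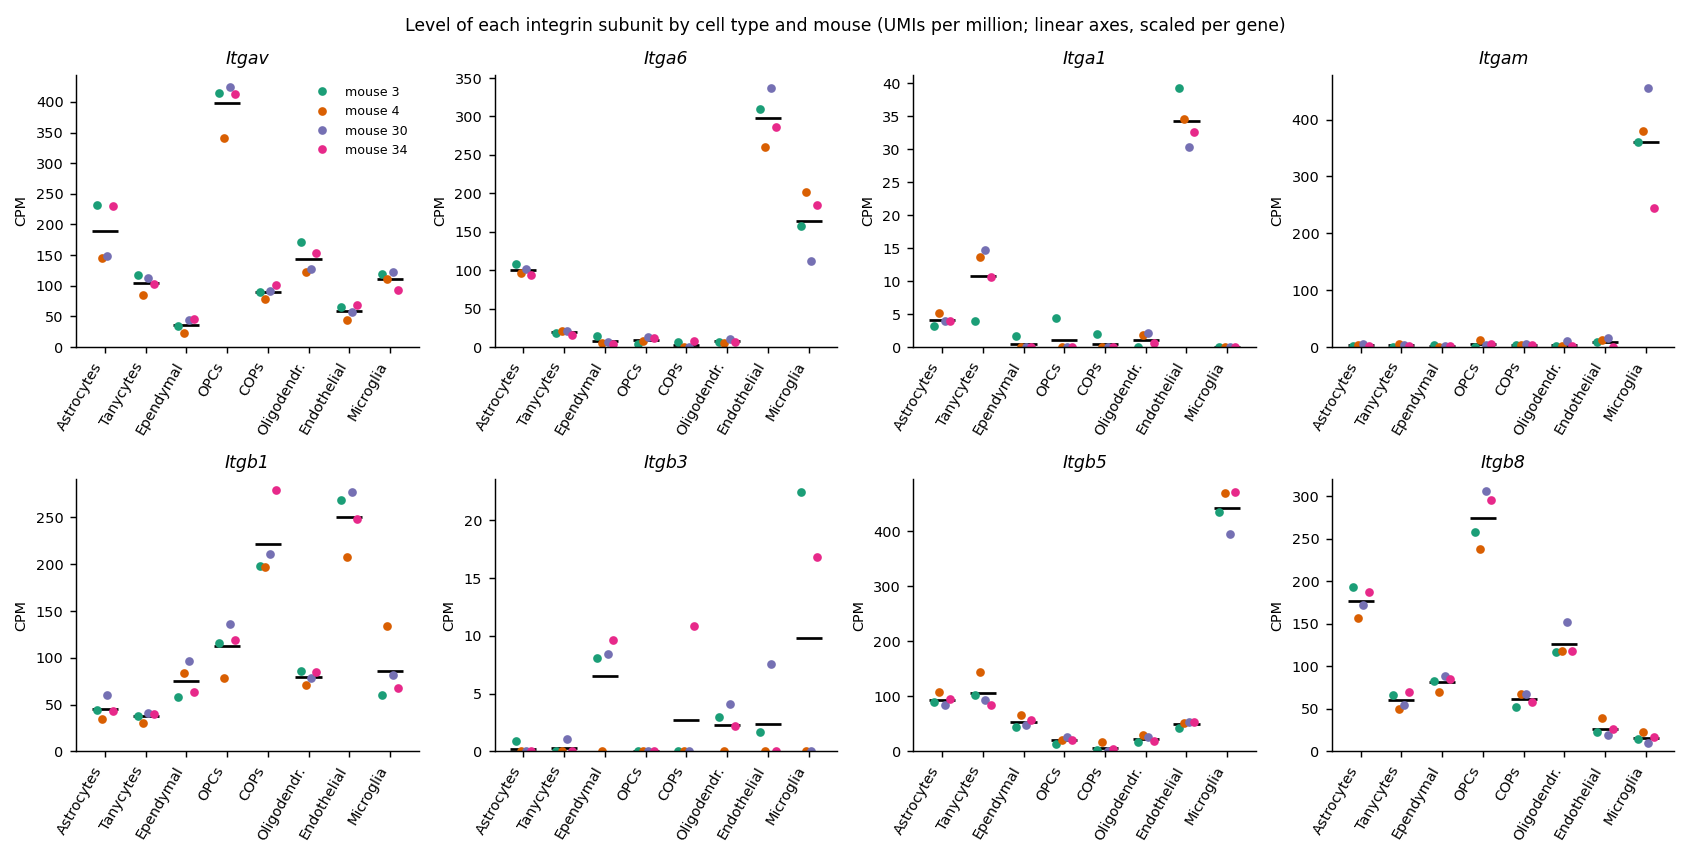
Each panel shows 1 subunit: CPM on the vertical axis, 8 cell types along the horizontal axis, a coloured point for each mouse and a black line for the mean. Itgav and Itgb8 stand highest in OPCs (means 398 and 274 CPM), Itga6, Itga1 and Itgb1 in endothelial cells, and Itgam and Itgb5 in microglia.

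Itgav was the alpha chain with the most UMIs in astrocytes, tanycytes, ependymal cells, OPCs, COPs and oligodendrocytes. OPCs of mice 3, 4, 30 and 34 held 414, 340, 425 and 413 CPM (398 ± 38.8), and every mouse lay above every mouse of every other type of the fit. Astrocytes followed at 232, 145, 148 and 231 CPM (189 ± 48.9), with mice 3 and 34 apart from mice 4 and 30. The level was 144 ± 22.7 CPM in oligodendrocytes, 111.5 ± 13.3 in microglia, 104 ± 14.3 in tanycytes, 90.2 ± 9.54 in COPs and 58.5 ± 11.2 in endothelial cells. Ependymal cells were lowest, at 34.0, 23.1, 44.3 and 45.7 CPM (36.8 ± 10.5), and the ratio of the highest to the lowest mean was 10.8.

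Of the 28 pairs of cell types, 25 differed in Itgav at an adjusted p below 0.05 (edgeR). Neighbours in the order that did not pass were microglia and tanycytes (log2 difference 0.08 ± 0.24 SE, adjusted p 0.836) and COPs and endothelial cells (0.405 ± 0.207, adjusted p 0.101). Itgav lies at chr2:83722303-83806917 (GRCm38.p6, RefSeq).

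Itgb8, the beta chain of the TGF-beta activating pair, had nearly the same order of types as Itgav at its upper end. OPCs held 258, 238, 306 and 296 CPM (274 ± 31.8), astrocytes 193, 157, 172 and 187 CPM (177 ± 16.2) and oligodendrocytes 117, 118, 152 and 118 CPM (126 ± 17.2), so that mouse 30 alone was high among the oligodendrocytes. Ependymal cells followed at 81.4 ± 8.47 CPM, above tanycytes at 60.1 ± 9.29 and COPs at 61.3 ± 7.54. Endothelial cells (26.6 ± 8.77 CPM) and microglia (16.1 ± 5.04 CPM, on 6 UMIs) were lowest. In this gene 26 of 28 pairs of types passed, and the neighbours that did not were tanycytes and COPs (adjusted p 0.349) and endothelial cells and microglia (adjusted p 0.42, edgeR). Itgb8 lies at chr12:119162803-119238276. Over the 8 means of types, the Pearson correlation of log2(CPM + 1) between Itgav and Itgb8 was 0.608, the highest of Itgav with the 5 other members compared (not Itga1 or Itgb3); the means share their libraries and are given as a description.

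The promoters of Itgav and Itgb8 are printed because these chains moved in the same direction at both steps of the oligodendrocyte lineage described below. Each is the RefSeq window from 250 bases before to 50 bases after an annotated start, and capitals mark matches on either strand to GAGGAA, the core read by PU.1, and to GGGCGG, the GC box read by Sp1. The Itgav window (chr2:83724147-83724446, plus strand) opens at a start inside the annotated gene span, and the Itgb8 window is chr12:119238227-119238526 on the minus strand.
Itgav: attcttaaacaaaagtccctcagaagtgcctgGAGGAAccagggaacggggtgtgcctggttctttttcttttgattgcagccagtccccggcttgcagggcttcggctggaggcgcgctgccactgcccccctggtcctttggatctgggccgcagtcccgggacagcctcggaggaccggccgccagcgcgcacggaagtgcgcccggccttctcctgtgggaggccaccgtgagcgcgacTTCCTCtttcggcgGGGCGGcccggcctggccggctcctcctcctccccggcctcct
Itgb8: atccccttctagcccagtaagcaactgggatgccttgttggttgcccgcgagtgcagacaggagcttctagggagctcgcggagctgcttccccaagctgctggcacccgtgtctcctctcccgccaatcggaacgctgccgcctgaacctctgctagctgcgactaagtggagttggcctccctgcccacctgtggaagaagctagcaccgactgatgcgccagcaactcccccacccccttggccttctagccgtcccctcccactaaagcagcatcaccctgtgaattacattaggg
With the first transcribed base counted as 0, the Itgav window held GAGGAA at -218 to -213 and, on the minus strand, at -7 to -2, and GGGCGG at 7 to 12. The Itgb8 window held neither. Over 32851 RefSeq promoter windows, 28.3% held GAGGAA and 35.7% held GGGCGG, and neither TATAAA (13.6% of windows) nor TGANTCA (7.81%) was in either window. Letters in a window are no evidence of a bound factor, and their absence says nothing of one.

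Itgb5, the beta chain of the vitronectin receptor with alpha v, was highest in microglia. Mice 3, 4, 30 and 34 gave 435, 469, 395 and 472 CPM (443 ± 35.8), and no mouse of another type exceeded 144 CPM. Tanycytes (106 ± 26.4 CPM) and astrocytes (94.1 ± 10.4 CPM) came next and did not pass the test of their difference (log2 difference 0.10 ± 0.12 SE, adjusted p 0.514 by edgeR). Ependymal cells held 54.1 ± 10.1 and endothelial cells 50.5 ± 5.17 CPM, again neighbours that did not pass (adjusted p 0.878). The oligodendrocyte lineage was low throughout, with 23.2 ± 6.37 CPM in oligodendrocytes, 19.9 ± 5.09 in OPCs and 5.65 ± 7.69 in COPs, the last on 7 UMIs. Of 28 pairs, 25 passed.

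Itgb1, the common beta chain of most matrix-binding integrins, was highest in endothelial cells, at 269, 208, 277 and 249 CPM (251 ± 30.8). COPs came close, at 199, 197, 211 and 279 CPM (221 ± 38.9), with mouse 34 above the other mice, and the groups overlapped (log2 difference 0.37 ± 0.13 SE, adjusted p 0.0144 by edgeR). The endothelial label also held cells with more mural than endothelial marker UMIs, described below. Its other 1125 cells held Itgb1 at 247, 195, 233 and 230 CPM in mice 3, 4, 30 and 34. In mice 4 and 34 the COPs of the same mouse lay higher, and no test was run without the mural-marker cells. The 12 VLMCs of mouse 4 and the 44 of mouse 30 held 226 and 190 CPM, on 24 UMIs over all 68 cells. OPCs, microglia, oligodendrocytes and ependymal cells lay between 112 ± 24.5 and 75.7 ± 18.0 CPM, and among them ependymal cells passed against OPCs (adjusted p 0.041) and against oligodendrocytes (adjusted p 0.0131, edgeR), while the other 4 pairs did not pass. Astrocytes (45.4 ± 10.6 CPM) and tanycytes (37.3 ± 4.76 CPM) were lowest and did not pass against each other (adjusted p 0.162). Of 28 pairs, 23 passed. Itgb1 lies at chr8:128685654-128733579.

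Itgb3, whose product pairs with alpha v to form an integrin known to bind FGF1, was close to absent from these counts. OPCs, the type with the most Itgav, held 0 Itgb3 UMIs, which allows up to 2.19 CPM for counting error. Astrocytes held 2 UMIs and tanycytes 1. Of the 44 UMIs, 17 were in ependymal cells, at 8.08, 0, 8.44 and 9.62 CPM in mice 3, 4, 30 and 34, and 13 were in oligodendrocytes at up to 4.12 CPM. Microglia had the highest mean (9.83 ± 11.6 CPM) on 5 UMIs from mice 3 and 34 alone. Without a filter on low counts, Itgb3 could be fitted and was called lower in tanycytes than in ependymal cells (adjusted p 8.6e-06) and in astrocytes than in ependymal cells (adjusted p 3.85e-05 by edgeR), on 1, 2 and 17 UMIs; it was also called higher in microglia than in astrocytes (adjusted p 0.00179) and lower in OPCs than in oligodendrocytes (adjusted p 0.0462). Itgb3 lies at chr11:104608000-104670476.

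Itga6, the laminin-binding alpha chain, was high in 3 types that do not belong to a common lineage. Endothelial cells held 310, 260, 338 and 286 CPM (298 ± 33.2), microglia 157, 201, 112 and 185 CPM (164 ± 39.3) and astrocytes 108, 96.4, 102 and 93.5 CPM (99.9 ± 6.39). Endothelial cells lay above microglia in every mouse (log2 difference 0.91 ± 0.19 SE, adjusted p 0.000127), and microglia above astrocytes (0.64 ± 0.21, adjusted p 0.0148 by edgeR), where the lowest microglia value stood next to the highest astrocyte value. Tanycytes held 19.0 ± 2.20 CPM, and oligodendrocytes, OPCs, ependymal cells and COPs 3.32 to 9.20 CPM, a group in which no neighbouring pair passed. Of 28 pairs, 22 passed. Itga6 lies at chr2:71786886-71858427.

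Itga1, the collagen-binding alpha chain, had its highest level in endothelial cells (59 of 142 UMIs), at 39.4, 34.7, 30.4 and 32.7 CPM (34.3 ± 3.84). Tanycytes followed at 3.93, 13.6, 14.8 and 10.7 CPM (10.7 ± 4.85), on 53 UMIs, with mouse 3 low, and astrocytes held 4.08 ± 0.808 CPM. The other types of the fit held 0 to 4 UMIs each: microglia had 0 of 395534 UMIs, which allows up to 7.58 CPM for counting error. Of 28 pairs, 15 passed, and no neighbouring pair below oligodendrocytes in the order did. Itga1 lies at chr13:114958079-115101964.

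Microglia held Itgam at 360, 380, 456 and 244 CPM (360 ± 87.6; mice 3, 4, 30 and 34), and 28.7% of microglia held an Itgam UMI at a median of 939 UMIs a cell. In the other 7 types of the fit the mean was 1.94 to 9.18 CPM and the share of cells 0.254% to 0.948%, the latter in endothelial cells at a median of 1064 UMIs. Whether RNA free in the droplets gives these low values was not tested. Of 28 pairs, 8 passed (edgeR): microglia against each of the 7 other types, and endothelial cells against tanycytes (adjusted p 0.0248). Itgam lies at chr7:128062640-128118491 and Itgb5 at chr16:33829665-33949338.

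The promoters of Itgam and Itgb5, the tested members highest in microglia, are printed with the same motifs in capitals (chr7:128062390-128062689 and chr16:33829415-33829714, both on the plus strand, GRCm38.p6).
Itgam: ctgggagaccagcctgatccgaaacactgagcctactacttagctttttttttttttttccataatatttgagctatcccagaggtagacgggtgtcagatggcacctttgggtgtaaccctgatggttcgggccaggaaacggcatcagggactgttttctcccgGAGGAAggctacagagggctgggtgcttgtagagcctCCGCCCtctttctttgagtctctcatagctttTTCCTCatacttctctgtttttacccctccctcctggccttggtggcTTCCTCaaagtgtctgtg
Itgb5: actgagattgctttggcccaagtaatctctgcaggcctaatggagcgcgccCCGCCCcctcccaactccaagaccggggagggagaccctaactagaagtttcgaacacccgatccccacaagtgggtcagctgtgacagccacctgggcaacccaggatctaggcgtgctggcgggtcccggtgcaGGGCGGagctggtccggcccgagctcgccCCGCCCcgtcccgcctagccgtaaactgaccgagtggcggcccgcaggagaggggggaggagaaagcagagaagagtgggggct
The Itgam window held GAGGAA at 3 places, on the plus strand at -84 to -79 and on the minus strand at -15 to -10 and at 32 to 37, and GGGCGG at -47 to -42 on the minus strand. The Itgb5 window held no GAGGAA and GGGCGG at 3 places, at -63 to -58 on the plus strand and at -199 to -194 and -34 to -29 on the minus strand. The 6 CG dinucleotides of the Itgam window are more than in 43.6% of all windows and the 20 of Itgb5 more than in 73.5%. The Itgb1 window held GAGGAA at -9 to -4 and GGGCGG at -151 to -146, both on the plus strand, the Itga1 window held neither, and Itga6 and Itgb3 had none in the table.

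The 3 types that line or adjoin the third ventricle, tanycytes, ependymal cells and astrocytes, were compared pair by pair. Tanycytes held more Itgav (log2 fold change 1.49 ± 0.16 SE, adjusted p 5.44e-12) and more Itga6 (1.30 ± 0.34, adjusted p 0.00131, edgeR) than ependymal cells, in 4 of 4 mice each. Itga1 had 53 UMIs in tanycytes and 1 in ependymal cells, a ratio of 21.3 with a 95% counting interval of 3.66 to 857. Itgb5 was higher by 0.97 ± 0.16 and Itgb1 lower (-0.90 ± 0.16), both past the adjusted p and short of the fold. In this comparison 3 of the 7 testable members were called, where 19.0% of all tested genes were. Without mouse 34, Itgb1 (-1.04) and Itgb5 (1.15) were called as well, and with sums thinned to equal totals Itga6 (0.287 ± 1.012, adjusted p 0.907) lost its call.

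Astrocytes held the same alpha chains at higher levels than ependymal cells. Itgav (log2 fold change 2.435 ± 0.150 SE), Itga6 (3.77 ± 0.245) and Itgb8 (1.198 ± 0.123, adjusted p 2.4e-13 by edgeR) were higher in astrocytes in 4 of 4 mice, and Itga1 had 21 UMIs against 1, a ratio of 8.69 (95% counting interval 1.398 to 360). Itgb1 was lower in astrocytes (-0.65 ± 0.16, adjusted p 0.000478) without reaching the fold. This made 4 of 7 called, against 30.1% of all genes. Without mouse 4 or mouse 34 Itga1 lost its call (adjusted p 0.0519 and 0.121).

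Between tanycytes and astrocytes the alpha chains parted. Itga6 was lower in tanycytes (log2 fold change -2.47 ± 0.15 SE, adjusted p 5.81e-23), and so was Itgb8 (-1.57 ± 0.11, adjusted p 4.23e-21, edgeR), each in 4 of 4 mice. Itga1 was higher (1.21 ± 0.43, adjusted p 0.0148). Itgav was lower by less than the fold (-0.945 ± 0.101), and Itgb5 (0.10 ± 0.12) and Itgb1 (-0.255 ± 0.150) did not pass. The 3 of 7 called compare with 20.8% of all genes. The Itga1 call was lost without mouse 4, 30 or 34 in turn (adjusted p 0.0551 to 0.103), and Itgav was called without mouse 30 (-1.06) or mouse 4 (-1.002).

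Along the oligodendrocyte lineage Itgav and Itgb8 fell at the step from OPCs to COPs and were higher again in oligodendrocytes, while Itgb1 ran the other way. From OPCs to COPs Itgav fell by 2.04 ± 0.15 and Itgb8 by 2.08 ± 0.17 on the log2 scale (adjusted p 5.69e-19 and 3.74e-17), and Itgb1 rose by 1.07 ± 0.15 (adjusted p 3.34e-08), each in 4 of 4 mice by edgeR. Itgb5 fell by 1.67 ± 0.57 (adjusted p 0.0188), on 26 UMIs in OPCs and 7 in COPs, and that call was lost without mouse 3, 30 or 34 in turn (adjusted p 0.0781 to 0.11) and without the cells of high doublet score (adjusted p 0.129); without mouse 34 Itgb1 was just under the fold (0.995). With all sums thinned to equal totals Itgb1 was at 0.551 ± 0.437 (adjusted p 0.384) and lost its call. The 4 of 7 called stand beside 21.1% of all genes.

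From COPs to oligodendrocytes Itgav rose by 1.065 ± 0.151, Itgb8 by 1.37 ± 0.165 and Itgb5 by 2.26 ± 0.45, and Itgb1 fell by 1.075 ± 0.130 (adjusted p 1.06e-10, edgeR), all in 4 of 4 mice. Itgav was under the fold without mouse 3 (0.953), with DESeq2 (0.983), and with DESeq2 size factors or a fit of the 2 types alone (0.989 in both). With sums thinned to equal totals, Itgb1 (-0.853 ± 0.470, adjusted p 0.16) and Itgb5 (1.674 ± 1.255, adjusted p 0.332) lost their calls. Again 4 of 7 were called, against 22.8% of all genes. In the direct comparison of OPCs with oligodendrocytes 0 of 7 were called, against 25% of all genes, although Itgav (0.98 ± 0.11, adjusted p 3.38e-12) and Itgb8 (0.705 ± 0.113, adjusted p 2.26e-07) passed the adjusted p. That count depends on the fold threshold: Itgav was past it with DESeq2 (1.085), with DESeq2 size factors (1.075), and without mouse 3 (1.06) or mouse 34 (1.02).

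The scaling matters in this lineage. The TMM factors were 0.23 on the log2 scale in OPCs, 0.13 in COPs and -0.21 in oligodendrocytes and between -0.06 and 0.00 in the mean of each other type, so that CPM by total UMIs and the fitted values part by that much. Itgb1 was at 112 ± 24.5 CPM in OPCs and 79.9 ± 6.79 CPM in oligodendrocytes by total UMIs, and the fitted log2 difference was 0.005 ± 0.148 (adjusted p 0.989, edgeR).

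Endothelial cells differed from astrocytes in 5 of 7 members, against 32.5% of all genes. Itgb1 (log2 fold change 2.49 ± 0.13 SE, adjusted p 1.03e-26), Itga6 (1.55 ± 0.12) and Itga1 (3.07 ± 0.41, adjusted p 2.13e-09) were higher, and Itgav (-1.74 ± 0.15) and Itgb8 (-2.85 ± 0.18, adjusted p 5.6e-23 by edgeR) were lower, each in 4 of 4 mice. Itgb5 was lower by less than the fold (-0.92 ± 0.18).

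Microglia differed from astrocytes in 3 of 7 members, against 28.3% of all genes. Itgam (log2 fold change 6.64 ± 0.35 SE, adjusted p 1.71e-26) and Itgb5 (2.23 ± 0.16) were higher, and Itgb8 was lower (-3.58 ± 0.36, adjusted p 2.2e-13, edgeR), each in 4 of 4 mice. Itgav was lower by 0.87 ± 0.215 and passed the fold only without mouse 30 (-1.02) or without the filter (-1.04). Itga6 (0.64 ± 0.21) and Itgb1 (0.75 ± 0.30, adjusted p 0.0445) were higher by less than the fold.

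**Figure D2:**
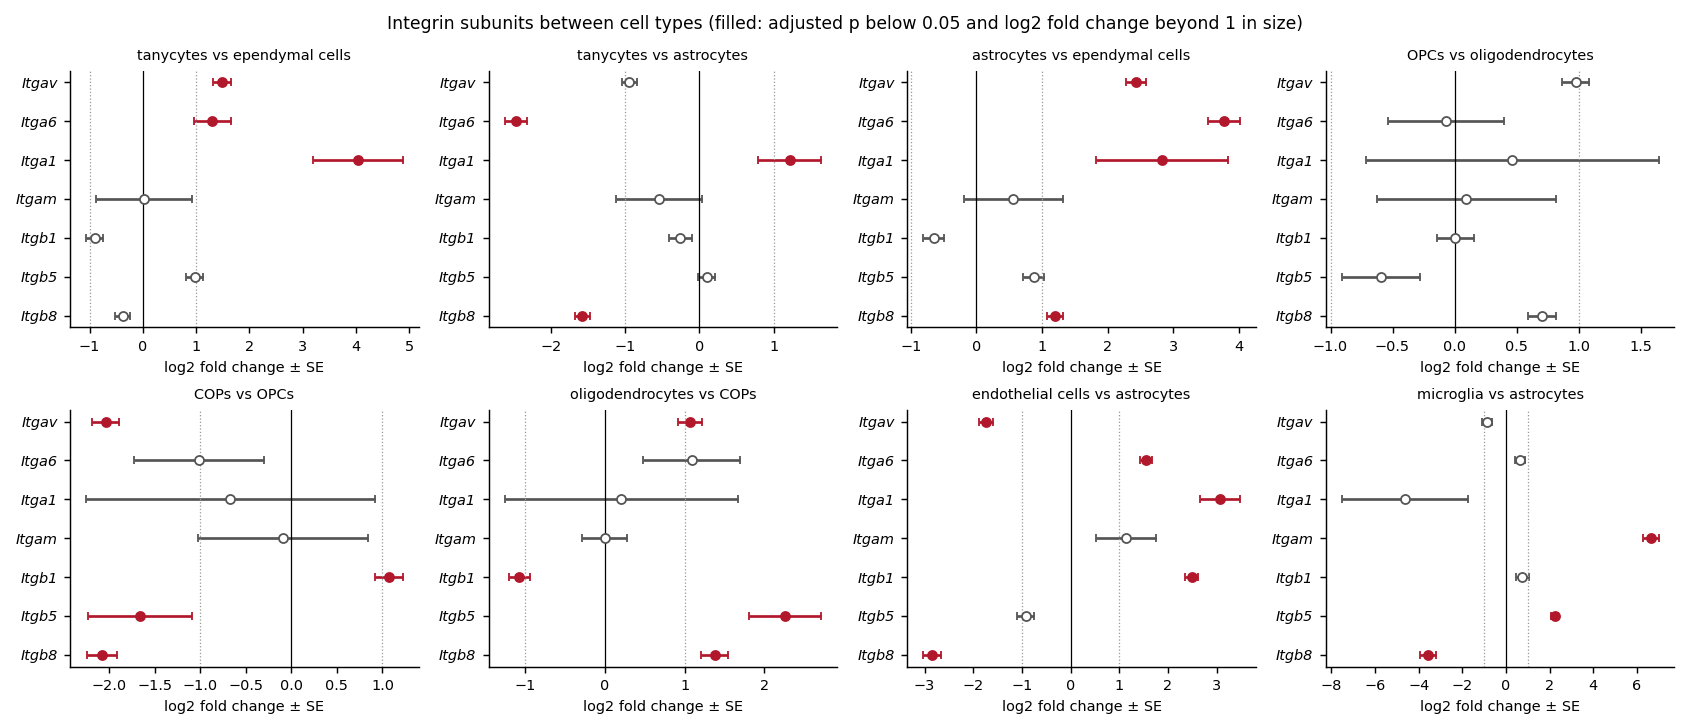
Each panel is 1 comparison, with the log2 fold change and its SE on the horizontal axis and a row for each of the 7 testable members; filled points were called and dotted lines mark 1 and -1. In the panels of COPs against OPCs and of oligodendrocytes against COPs, Itgav, Itgb5 and Itgb8 lie on the opposite side of 0 from Itgb1.

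The make-up of the alpha and beta chains is given as shares of RNA, and protein was not measured. Of all UMIs of the 18 alpha subunits listed, Itgav made up 77.9% ± 4.64 in OPCs, 74.5% ± 8.88 in COPs, 69.5% ± 9.05 in oligodendrocytes, 60.5% ± 3.79 in tanycytes and 52.8% ± 6.55 in astrocytes (mean ± SD, n = 4 mice). In endothelial cells it was 11.6% ± 2.09 and Itga6 was 59.1% ± 1.18, and in microglia Itgam was 49.0% ± 5.07. Of the UMIs of 7 beta subunits, Itgb8 made up 67.1% ± 1.69 in OPCs and 55.4% ± 3.19 in astrocytes, Itgb5 62.5% ± 6.87 in microglia and 50.5% ± 8.90 in tanycytes, and Itgb1 74.6% ± 3.84 in endothelial cells and 64.2% ± 4.29 in COPs. Ependymal cells had no chain above 40%: Itgb8, Itgb1 and Itgb5 held 34.8%, 31.8% and 23.0% of beta UMIs, and Itgav shared the alpha UMIs (36.5% ± 6.29) with Itga2b (29.3% ± 12.0).

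**Figure D3:**
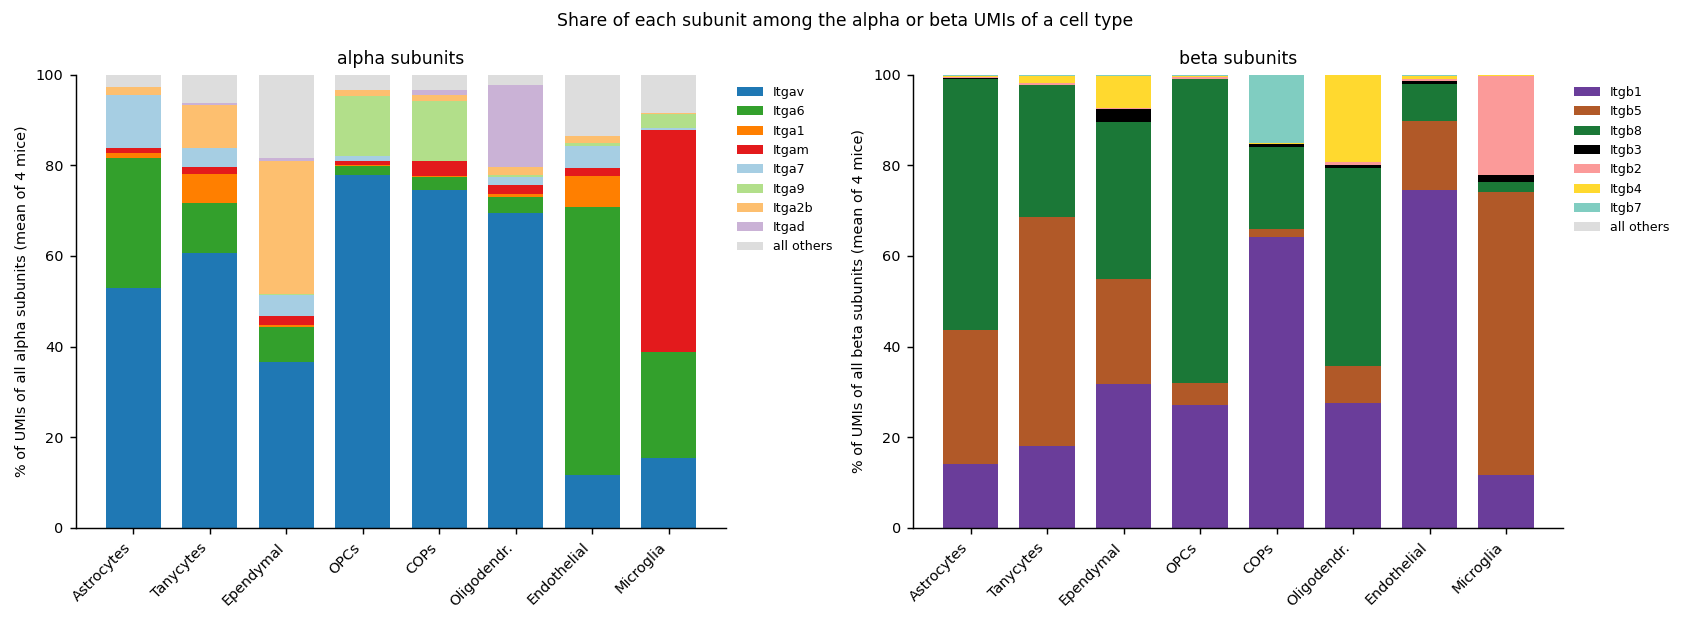
Bars show, for 8 cell types, the percentage of all alpha (left) or beta (right) subunit UMIs held by each subunit, as the mean of 4 mice. Itgav (blue) fills most of the bar in the oligodendrocyte lineage and tanycytes, Itga6 (green, left) leads in endothelial cells at 59.1%, and the leading beta chain changes from Itgb8 in OPCs and astrocytes to Itgb5 in tanycytes and microglia and Itgb1 in endothelial cells and COPs.

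Known pairs of Itgav, Itga6, Itga1 and Itgam were looked at, and pairs of other alpha chains were not counted. Such a pair was counted as found together in a type where both chains averaged at least 50 CPM. Of 72 combinations of 8 pairs with 9 types, 20 met this, 28 did at 25 CPM and 9 at 100 CPM. The 9 were Itgav with Itgb8 in astrocytes, OPCs and oligodendrocytes, Itgav with Itgb5 in tanycytes and microglia, Itgav with Itgb1 in OPCs and VLMCs, Itga6 with Itgb1 in endothelial cells, and Itgam with Itgb2 in microglia. The VLMC values rest on 13 Itgav and 24 Itgb1 UMIs: Itgav was at 715, 181, 59.4 and 0 CPM in mice 3, 4, 30 and 34, its mean of 239 CPM was 80.2 CPM without mouse 3 and 42.3 CPM without cells of high doublet score, and the latter took Itgb1 from 189 to 113.9 CPM. Itgav with Itgb3, Itga1 with Itgb1 and Itga6 with Itgb4 reached 50 CPM in no type, and ependymal cells reached it for no pair. Without each mouse in turn 19 pairs remained of these 20; Itgav with Itgb5 in endothelial cells was lost without mouse 4, 30 or 34, and Itgav with Itgb8 in VLMCs without mouse 3.

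The balance within a pair differed between types. Itgav exceeded Itgb8 in 4 of 4 mice in OPCs (ratios of CPM 1.39 to 1.60) and in tanycytes (1.48 to 2.06), and in astrocytes in 2 of 4 (0.86 to 1.23). Itgav was 3.12 to 4.37 times Itgb1 in OPCs and 0.36 to 0.45 times Itgb1 in COPs, ranges that do not overlap. In endothelial cells Itga6 was 1.15 to 1.25 times Itgb1, and in microglia Itgav was 0.20 to 0.31 times Itgb5. Itgam was 1.42 to 3.69 times its partner Itgb2, which was at 97.4, 268, 132 and 152 CPM in microglia.

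**Figure D4:**
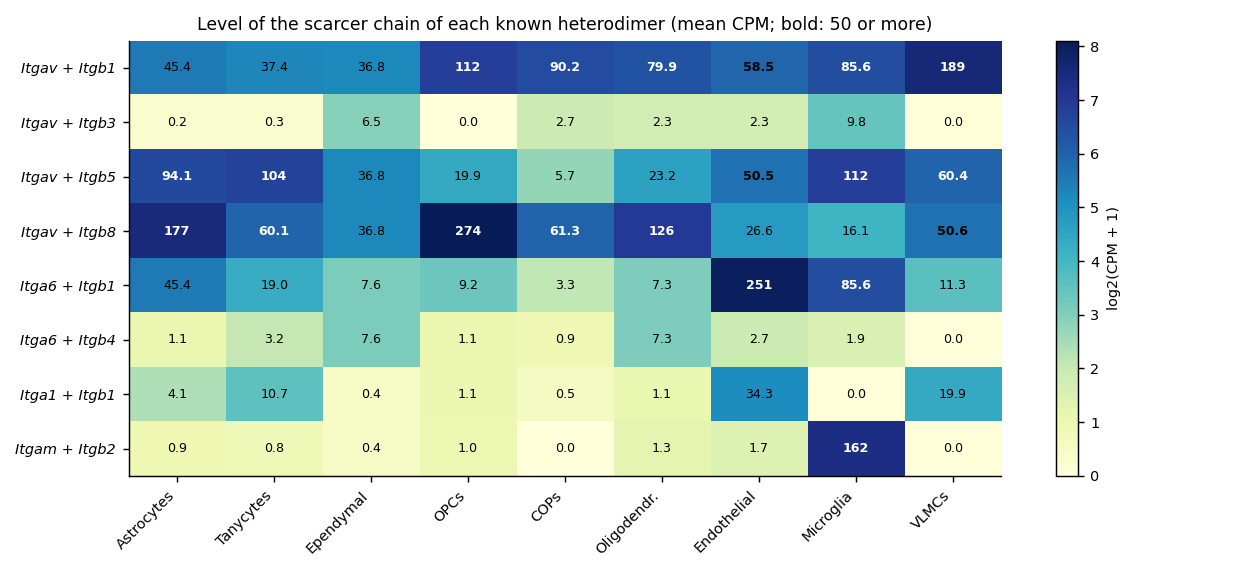
Rows are 8 known heterodimers of Itgav, Itga6, Itga1 and Itgam, and columns are 9 cell types. Each number is the mean CPM of the scarcer chain and bold marks 50 or more. The highest values are Itgav with Itgb8 in OPCs (274) and Itga6 with Itgb1 in endothelial cells (251), and the row of Itgav with Itgb3 stays at or below 9.83.

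Whether chains share a cell was examined in cells thinned to 700 UMIs each (18017 cells kept, 2134 shallower cells left out), for the 11 combinations of pair and type with at least 100 thinned cells positive for each chain. In OPCs an Itgb8 UMI was found in 23.5% ± 3.69 of cells with an Itgav UMI and in 16.8% ± 0.850 of the others, a difference of 6.69 points ± 4.45 (SD, n = 4 mice) that was positive in 4 of 4 mice. The exact sign-flip permutation test, two-sided, cannot go below p = 0.13 with 4 mice, so that these differences are given as descriptions. The difference was also positive in 4 of 4 mice for Itgb1 in endothelial cells with and without Itga6 (18.8% against 14.3%, difference 4.56 points ± 1.79) and for Itgb1 in astrocytes with and without Itgav (5.61% against 2.75%, difference 2.85 points ± 2.03). The other 8 differences lay between -2.26 and 0.54 points and were positive in 1 to 3 of 4 mice. The size depends on depth: the OPC difference was 1.85 points at 500 UMIs and 8.91 at 1000, and the endothelial difference was -1.72 points at 500 UMIs and 11.7 with no thinning. Cells without a UMI of a chain may still hold its RNA at this depth.

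**Figure D5:**
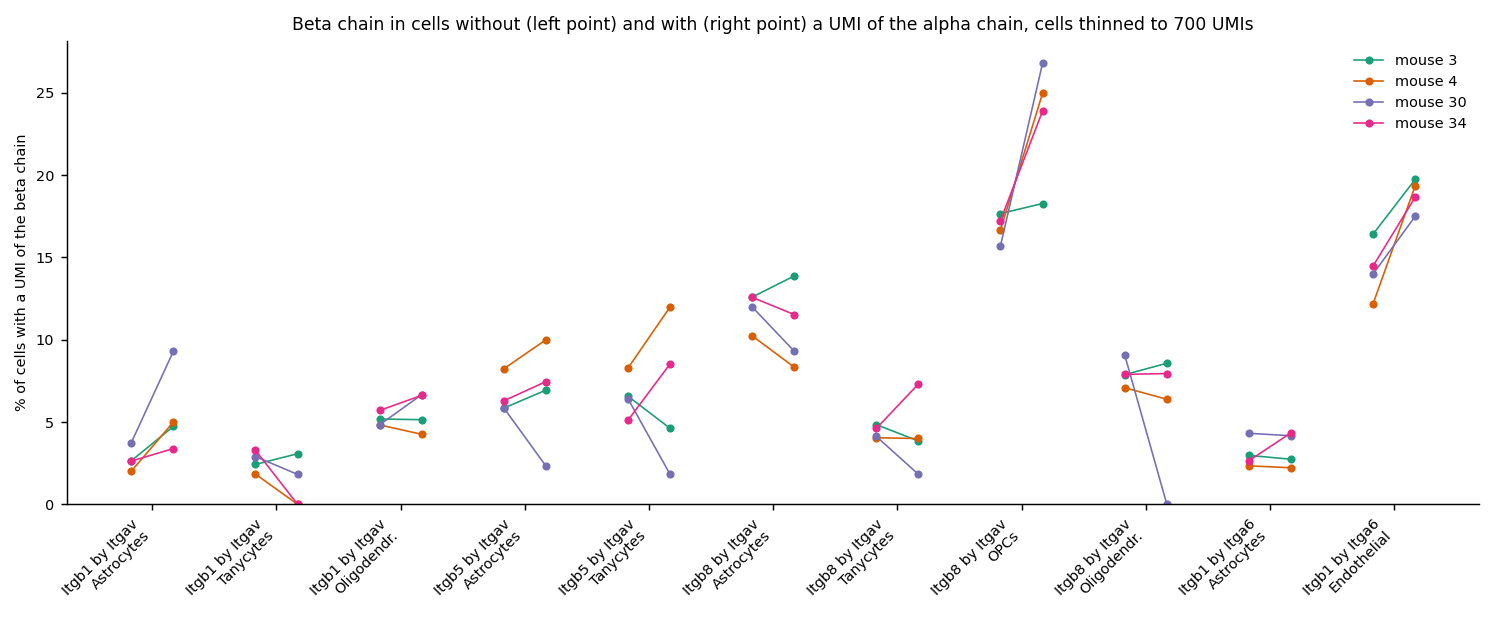
For 11 combinations of pair and cell type, the vertical axis gives the percentage of thinned cells with a UMI of the beta chain, in cells without (left point) and with (right point) a UMI of the alpha chain; lines join the values of a mouse. In OPCs (Itgb8 by Itgav) and endothelial cells (Itgb1 by Itga6) the right point is higher in each of the 4 mice. The same holds in astrocytes for Itgb1 by Itgav. With cells thinned to 500 UMIs the endothelial difference was -1.72 points.

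The endothelial label also held mural markers, genes of pericytes and smooth muscle cells, at a sum of 2264 to 2847 CPM, with all 5 detected. In 141 of the 1266 endothelial cells UMIs of mural markers outnumbered those of endothelial markers. Over these cells Itgb1 was at 433 CPM pooled over mice (95% Poisson interval 344 to 537, counting error only) against 232 CPM (208 to 258) in the other 1125 cells, and it was higher in 4 of 4 mice. Itga6 was at 137 CPM (89.7 to 201) against 319 CPM (291 to 349), lower in 4 of 4 mice, and Itgav at 116 CPM (72.8 to 176) against 55.3 CPM (44.1 to 68.6), higher in 4 of 4. Itga1 was at 52.8 CPM (25.3 to 97.1) against 32.7 CPM (24.2 to 43.2), intervals that overlap. The cells with more mural UMIs still held Flt1 at 1104 CPM and Cldn5 at 502 CPM, both endothelial markers, and the part of mixed droplets in these values was not tested.

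The microglia label held macrophage markers at 97.4 to 455 CPM summed, with all 5 detected, and 14 of its 380 cells had more macrophage than microglia marker UMIs. These 14 cells held 12355 UMIs and 0 of Itgam, which allows up to 243 CPM by the count of 3 UMIs used here as a limit, while the other 366 cells held 363 CPM. In those 366 cells Itgb5 was at 452 CPM (95% Poisson interval 387 to 524), so that the microglia values above do not rest on the 14.

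Among the 17 other subunits listed, 7 could be tested, and several were high in 1 type. Itgb2 reached 162 ± 74.0 CPM in microglia, with 56 UMIs there and 3 in astrocytes. Itga7, a laminin-binding chain, was at 40.7 ± 5.77 CPM in astrocytes and was higher there than in tanycytes (log2 fold change of tanycytes against astrocytes -2.34 ± 0.27, adjusted p 1.51e-11, edgeR). In the oligodendrocyte lineage Itga9 was at 68.8 ± 20.9 CPM in OPCs, 16.3 ± 10.2 in COPs and 0.994 ± 0.743 in oligodendrocytes, and it was lower in COPs than in OPCs (log2 fold change -1.94 ± 0.38, adjusted p 3.22e-05, edgeR). Itgb7 was at 68.2, 34.0, 62.2 and 39.9 CPM in COPs, with 1 UMI in OPCs against 68 (ratio 73.0, 95% counting interval 12.7 to 2926). Itgb4 (55.7 ± 17.6 CPM) and Itgad (37.0 ± 9.15 CPM) were high in oligodendrocytes alone among the lineage: Itgb4 had 358 UMIs there and 2 in OPCs, and Itgad 197 and 0, at least 15.8-fold higher against a limit of 3 UMIs over the group. Itgb4 pairs with alpha 6, and Itga6 was at 7.26 ± 2.097 CPM in the same cells. Itgal was at 101 CPM in the microglia of mouse 30 and at 0 in those of the other mice. Itga2 and Itgax had 0 UMIs.

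Of the intracellular adaptors and signalling partners of integrins, 29 of 30 listed genes could be tested. COPs differed from OPCs in 13 of them, 9 higher and 4 lower (21.1% of all genes were called), among them Parvb (4.57 ± 0.22), Bcar1 (3.72 ± 0.33) and the kinase Fyn (3.60 ± 0.11, adjusted p 2.36e-39 by edgeR) higher and the endocytic adaptor Dab2 (-3.36 ± 0.465) lower. Oligodendrocytes differed from COPs in 11, of which 7 were lower (22.8% of all genes), with Fyn (-4.47 ± 0.105) and Parvb (-3.61 ± 0.15) lower again; Fyn is among the COP markers used here. Endothelial cells held 14 adaptors above and 2 below astrocytes (32.5% of all genes), and microglia 6 above and 6 below (28.3%), with Fermt3, the kindlin of blood cells (6.16 ± 0.655), and Apbb1ip (5.85 ± 0.43) higher and vinculin (Vcl, -3.54 ± 0.44) lower. Tanycytes held 8 of 29 adaptors below astrocytes and 0 above, where 10.5% of all genes were called lower, with Dab2 (-3.51 ± 0.22) and Vcl (-2.89 ± 0.15) among them. The median log2 fold change of the adaptors in endothelial cells against astrocytes was 0.99, where that of all genes was -0.03.

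Of the ligands of RGD-binding integrins, 7 of 15 listed could be tested. Endothelial cells held 4 above and 1 below astrocytes (32.5% of all genes called), oligodendrocytes 2 above and 0 below COPs (22.8%), and tanycytes 0 above and 2 below astrocytes (20.8%); OPCs held 2 above and 1 below oligodendrocytes (25%). Vitronectin (Vtn) was at 1006 ± 122 CPM and fibronectin (Fn1) at 574 ± 24.1 CPM in endothelial cells, both higher than in astrocytes (log2 fold changes 6.70 ± 0.185 and 6.63 ± 0.19, adjusted p 1.44e-42 and 4.87e-41, edgeR). Within the endothelial label, the 141 cells with more mural than endothelial marker UMIs, described above, held Vtn at 3854, 1893, 1346 and 2028 CPM in mice 3, 4, 30 and 34, and the other 1125 cells at 840, 790, 777 and 984 CPM, lower in 4 of 4 mice. Fn1 was lower in the 141 cells in 4 of 4 mice (317 against 599.9 CPM pooled). Mfge8, which carries an RGD motif, was at 322 ± 14.2 CPM in astrocytes and lower in tanycytes (-1.63 ± 0.11), and Edil3 was at 527 ± 49.6 CPM in oligodendrocytes, higher than in COPs (2.66 ± 0.14). Of the 12 testable genes of laminins, collagens and basement membrane, 10 were higher and 0 lower in endothelial cells than in astrocytes, where 15.6% of all genes were called higher, with a median log2 fold change of 3.73 against -0.03 for all genes; Col4a2 (4.765 ± 0.223) and Hspg2 (5.07 ± 0.35) were among them.

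Of 13 tested genes of TGF-beta activation and signalling, 8 differed from astrocytes in microglia and 8 in endothelial cells. In microglia 5 were higher and 3 lower, where 28.3% of all genes were called. In endothelial cells 6 were higher and 2 lower, where 32.5% were. The receptor genes Tgfbr1 (540 ± 136 CPM, log2 fold change 5.08 ± 0.21, adjusted p 3.52e-32) and Tgfbr2 (157 ± 42.4 CPM, 7.13 ± 0.475) were higher in microglia by edgeR, as was Nrros (138 ± 49.3 CPM, 4.66 ± 0.40), which tethers latent TGF-beta on microglia. Tgfb1 had 24 UMIs in microglia and 1 in astrocytes (62.4 ± 8.28 CPM in microglia; ratio 333, 95% counting interval 54.3 to 13690). Itgb8, at 177 CPM in astrocytes and 16.1 CPM in microglia, ran opposite to these named genes. It ran the same way as Ltbp1 (133 UMIs in astrocytes, 2 in microglia) and Ltbp3 (219 and 1), which were among the 3 called lower. Tgfb2 was at 86.6 ± 7.30 CPM in tanycytes, higher than in astrocytes (1.025 ± 0.135, adjusted p 1.12e-09) and in ependymal cells (1.12 ± 0.17), while the receptors Tgfbr2 (-4.15 ± 0.33) and Tgfbr3 (-4.77 ± 0.39) were lower in tanycytes than in ependymal cells.

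The 6580 genes that reached 50 CPM in any type were ranked by likeness to 6 members (Itga1 and Itgb3 did not reach 50 CPM and were not ranked), and those whose means over the 8 types were most like those of a member, by Pearson correlation of log2(CPM + 1), were Ndrg4, Mbd6 and Vsnl1 for Itgav (0.962, 0.9495 and 0.909), Alcam, Magi2 and Prpsap1 for Itgb8 (0.969, 0.937 and 0.935), and Nrp1, Slc3a2 and Sult1a1 for Itga6 (0.978, 0.969 and 0.937). Itgam was most like Il1b, Cx3cr1 and Bcl2a1d (0.998, 0.994 and 0.993), Itgb5 like Lag3, Dtx4 and Tor1aip1 (0.978, 0.954 and 0.944), and Itgb1 like Prrc2c, Ddx46 and Ccnt1 (0.961, 0.957 and 0.952). With 8 points that share libraries these are descriptions.

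The spread between mice was modest next to the spread between types. Over the 39 levels of members with at least 20 UMIs in a type, the coefficient of variation over mice had a median of 15.5% and ran from 6.39% to 45.2%. Mouse 30 held the highest level in 16 of these 39 and the lowest in 5, and mouse 4 the highest in 9 and the lowest in 19.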

How the data were processed

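Whole cells of the hypothalamus were captured with the 10x Genomics 3′ v2 kit. The deposited matrix holds UMI counts per gene and cell, not normalized, which the authors made with Cell Ranger 1.2 and Seurat per the labels' processing notes; these name the builds GRCm38, mm10 and GRCh38 with no role, and how reads were assigned to genes is not given in the sources used here. The deposited cell table also gives the percentage of mitochondrial UMIs, a doublet score between 0 and 1 (a fraction; caller not stated) and the cell type label that the authors assigned. Cells of 12 further libraries in the table (50172 cells) match no labelled sample and were not used, nor was a depth-corrected matrix made over all libraries. No cell was removed as a doublet; the tenth of cells with the highest score was left out as an alternative.

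Counts were summed per mouse and type (44756 to 2319177 UMIs a sum). edgeR 4.0.16 (R 4.3.3, limma 3.58.1) fitted type and mouse, with filterByExpr, TMM and the quasi-likelihood test across all genes, Benjamini-Hochberg adjusted; all types come from the same mice, so mouse is a block. DESeq2 1.42.0 was an alternative. Other values used NumPy 2.4.6, pandas 2.3.3, SciPy 1.17.1 and Matplotlib 3.10.9. The fit was also run on simulated data, and its outcome is not given here. Poisson and ratio intervals are exact at 95% and, like the limit of 3 counts where 0 were found, cover counting error only.

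The members and all gene lists were chosen with earlier results of these data known. Named beyond the members were the genes of the fixed lists that were called with the largest changes, the other subunits, and the 3 genes most like each of the 6 members that reached 50 CPM in a type of the fit (not Itga1 and Itgb3). Promoters come from RefSeq (GRCm38.p6), where 6 of the 8 members matched.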

Additional observations from a re-analysis of the deposited data

Results flagged for a closer look

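In each of 39 combinations of member and cell type with at least 20 UMIs, the 4 mice were searched for a value far from the other 3, by Dixon's ratio of the gap to the whole range against its 95% critical value for 4 samples. About 1 in 20 such groups passes by chance, and 3 of 39 passed. Itgav in OPCs was at 340.3 CPM in mouse 4, where the others lay between 413.0 and 424.6 CPM (ratio 0.863). The COPs of mouse 34 held Itgb1 at 278.9 CPM, and the other 3 mice spanned 196.9 to 210.6 CPM (ratio 0.834). For Itgb8 in oligodendrocytes it was mouse 30, with 152.2 CPM, that lay above a span of 117.3 to 118.4 CPM (ratio 0.969).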

How the results depend on the processing

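Of 572 values of member fold changes under the alternatives, 538 kept their side of the threshold, 19 lost a call and 15 gained one. Among the 538 were 31 that changed sign, all of members called in neither setting (16 of them Itgam), and 0 called values changed sign. Without the replicate block for mouse, the members called were the same number in each of the 8 comparisons (3, 3, 4, 0, 4, 4, 5 and 3) and all genes called numbered 1890 for tanycytes against ependymal cells (1936 with it). Of 424 values of member levels under the alternatives, 415 stayed within 1 SD over mice of the main value. That range is wide where few UMIs were found. Itgav in VLMCs went from 239 to 42.3 CPM without cells of high doublet score, within its SD of 326 CPM. Thinning all sums to equal totals, which leaves fewer UMIs and 5 testable members, gave 205 called genes for tanycytes against ependymal cells, 321 for tanycytes against astrocytes, 406 for astrocytes against ependymal cells, 367 for OPCs against oligodendrocytes, 347 for COPs against OPCs, 390 for oligodendrocytes against COPs, 527 for endothelial cells and 520 for microglia against astrocytes; members called were then 1, 1, 2, 1, 1, 1 and 3 in the first 7 of these. With no filter, 5 members were called between tanycytes and ependymal cells, 1 between OPCs and oligodendrocytes and 5 between microglia and astrocytes. For OPCs against oligodendrocytes 1 member was also called with DESeq2 size factors, DESeq2 and a fit of the 2 types. That smaller fit called 1172 genes for COPs against OPCs, 1805 for microglia against astrocytes and 2 members for oligodendrocytes against COPs. Leaving out a mouse gave 3 to 5 members for tanycytes against ependymal cells, 0 to 1 for OPCs against oligodendrocytes (1 without mouse 3 or 34) and 2 to 4 for COPs against OPCs (2 without mouse 34). At 100 CPM 9 pairs were found together. Endothelial Itgam against astrocytes was called without mouse 34 alone (adjusted p 0.0447, edgeR). The cause of these changes was not tested, other than the smaller number of UMIs or members by construction.

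For chains in the same cell, the difference of Itgb1 by Itgav in tanycytes was 0.2525 points at 1000 UMIs and 1.196 with no thinning (-1.391 at 700), and that of Itgb1 by Itgav in oligodendrocytes 1.906 with no thinning. Itgb8 by Itgav was 0.771 at 500 UMIs and 1.375 with no thinning in astrocytes, 1.854 at 500 in OPCs and 5.409 with no thinning in oligodendrocytes. Itgb1 by Itga6 was 2.099 with no thinning in astrocytes, and -1.72 at 500 UMIs and 11.68 with no thinning in endothelial cells. A count of 0 allows up to 24.1 CPM in VLMCs and 7.58 CPM in microglia, the 2 types with the fewest UMIs.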
